A study of Mus musculus with 8 samples.

Results

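Organic ion transporters of the Slc22 family were followed in mouse kidneys labelled control or conditional knockout of Kdm1a. The set described here holds 9 of them, namely Slc22a2, Slc22a4, Slc22a5, Slc22a6, Slc22a7, Slc22a8, Slc22a12, Slc22a18 and Slc22a22. They were taken by name, from the GENCODE M21 symbols of their Ensembl IDs, so 9 of the 49315 genes in the deposited count table are members, and 8 of the 9 had enough reads to be tested. Kdm1a encodes LSD1, a histone demethylase that works in repressor complexes. Messenger RNA from 4 kidneys labelled control and 4 labelled conditional knockout of Kdm1a was sequenced, and the series asks which genes depend on Kdm1a in the kidney. The labels give the tissue and the genotype. The strain, age and sex, the recombinase that deletes the conditional allele and the cells it acts in are not given in the sources used here, nor is it said whether each library came from a different animal, so p-values measure the spread between these libraries.

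Slc22 proteins carry charged small molecules across the plasma membrane. In the kidney most of them sit in the proximal tubule, the segment that reclaims filtered solutes and secretes drugs, toxins and metabolites. On the blood-facing (basolateral) side, exchangers such as OAT1 and OAT3 take up organic anions in return for dicarboxylates, and OCT2 takes up organic cations. On the urine-facing (apical) side, URAT1 reabsorbs urate and OCTN2 reabsorbs carnitine.

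The libraries held 19524945 to 28544511 counts, and abundance is given per 1000000 counts (CPM). Kdm1a itself was at 109.8, 112, 119.8 and 109.7 CPM in control replicates 1 to 4 and at 94.0, 95.3, 90.9 and 94.2 CPM in knockout replicates 1 to 4. All knockouts lay below all controls, with a fitted log2 difference of -0.27 (SE 0.05, edgeR adjusted p = 0.0194), a small part of the control level, and Kdm1a was called in 3 of the 8 fits that left out 1 library. Markers of the proximal tubule were present in all 8 libraries. Their mean over 25 tested genes, as log2 CPM, was 6.11, 4.67, 5.67 and 6.53 in the controls and 2.97, 1.61, 3.88 and 3.18 in the knockouts, and 21 of the 25 were called lower (an adjusted p under 0.05 in edgeR's quasi-likelihood test is termed a call), but 1 of 26 without knockout replicate 4. Fewer proximal tubule cells and less RNA per cell cannot be told apart in whole tissue. Markers of some other cells moved too. Across all 18485 genes tested, 8.27% were called lower and 6.61% higher. Of 8 thick ascending limb markers, 6 were called lower (median -2.43), and their summed level was 251.2 to 1164 CPM in the controls and 37.8 to 342.6 CPM in the knockouts, with Umod, for uromodulin, at -5.52 (edgeR adjusted p = 0.0219). Of 8 podocyte markers, 2 were called lower (median -0.98, sums of 787.4 to 1303 and 594 to 944.4 CPM). Of 11 tested collecting duct markers, 0 were called lower and 1 higher (median -0.79). For the distal convoluted tubule 3 of 7 were called lower (median -0.01), for endothelium 1 of 8 (-0.40) and for nephron progenitors 2 of 8 (0.31). Of 7 tested leukocyte markers, 1 was called in each direction (median 0.03). Of 8 fibroblast markers, 1 was called higher (median 0.55, sums of 2849 to 4092 and 3319 to 5660 CPM), namely Pdgfra, a receptor of stromal cells, at 0.90 (adjusted p = 0.00575). Of 8 tested liver markers, 1 was called in each direction (sums of 28.7 to 112.3 and 14.1 to 199.6 CPM), and Alb was at 89.3 and 82.4 CPM in knockout replicates 1 and 4 against at most 7.09 CPM in the others. Several libraries stood apart. Knockout replicate 1 carried 2703 CPM of summed adrenal markers, knockout replicate 4 carried 335 CPM and control replicate 4 carried 147 CPM, against 15.0 to 21.6 CPM in the other 5. Control replicate 2 and knockout replicates 1 and 4 lacked Y-linked transcripts, with a sum of at most 2.63 CPM against at least 228.7 CPM in the others, and expressed Xist at 964.5 CPM or more. Fits without the adrenal-rich libraries, with only the libraries that had Y-linked transcripts, and with a Y-linked covariate are given below. Whether these features cause any of the differences was not tested.

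Upstream sequences are shown for 5 of the transporters, because neighbouring and related genes among them differed in how far they fell. Each run is the 250 bases before the RefSeq transcription start on GRCm38.p6, read 5′ to 3′ along the strand of the gene. The promoter table held 8 of the 9 members, and Slc22a7 was the one not matched. Capitals mark CG pairs. Slc22a6 (chr19:8617746-8617995, plus strand) and Slc22a8 (chr19:8592932-8593181, plus strand, a RefSeq start inside the span that the deposited table gives for the gene) encode OAT1 and OAT3 and are neighbours.
Slc22a6: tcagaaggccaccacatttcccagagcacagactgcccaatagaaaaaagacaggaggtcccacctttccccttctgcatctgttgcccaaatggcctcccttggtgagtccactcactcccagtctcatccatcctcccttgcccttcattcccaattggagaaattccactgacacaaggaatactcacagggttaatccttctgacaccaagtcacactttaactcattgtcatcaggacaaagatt
Slc22a8: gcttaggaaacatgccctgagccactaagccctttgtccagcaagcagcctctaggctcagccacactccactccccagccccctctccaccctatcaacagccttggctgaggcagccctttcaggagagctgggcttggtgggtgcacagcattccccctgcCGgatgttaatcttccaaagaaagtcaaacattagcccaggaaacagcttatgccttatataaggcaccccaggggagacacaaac
Slc22a5 (chr11:53891704-53891953, minus strand) and Slc22a4 (chr11:54028105-54028354, minus strand), the carnitine and ergothioneine transporters, have windows dense in CG pairs. Slc22a2 (chr17:12583939-12584188, plus strand), the cation transporter, is shown for contrast.
Slc22a5: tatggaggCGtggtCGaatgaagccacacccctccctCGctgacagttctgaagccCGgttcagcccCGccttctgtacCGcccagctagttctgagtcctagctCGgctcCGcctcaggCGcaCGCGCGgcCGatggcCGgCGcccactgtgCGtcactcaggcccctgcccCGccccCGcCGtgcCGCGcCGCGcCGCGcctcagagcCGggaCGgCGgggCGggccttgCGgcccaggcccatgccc
Slc22a4: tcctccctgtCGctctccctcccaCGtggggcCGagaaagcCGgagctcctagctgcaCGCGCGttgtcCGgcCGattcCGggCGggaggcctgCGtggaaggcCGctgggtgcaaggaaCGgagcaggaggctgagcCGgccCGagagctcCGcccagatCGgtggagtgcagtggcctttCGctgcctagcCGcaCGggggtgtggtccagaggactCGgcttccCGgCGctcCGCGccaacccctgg
Slc22a2: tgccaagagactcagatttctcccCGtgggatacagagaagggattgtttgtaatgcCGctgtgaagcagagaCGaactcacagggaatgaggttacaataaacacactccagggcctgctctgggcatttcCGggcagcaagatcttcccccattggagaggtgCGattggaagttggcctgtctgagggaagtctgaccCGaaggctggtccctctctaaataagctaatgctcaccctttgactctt
The window of Slc22a5 was 73.6% G or C with 30 CG pairs, and that of Slc22a4 was 71.2% with 26. Slc22a2 had 51.6% and 6 CG pairs, Slc22a6 had 48.4% and none, and Slc22a8 had 55.2% and 1. Among the members not shown, Slc22a18 had 0 CG pairs and Slc22a12 had 6, and neither was called (log2 fold changes -1.33 and -2.65). Slc22a22 had 0 and 1 in its windows. A relation between CG pairs and the size of the fall was not tested. The medians over all 32851 windows were 52.4% and 6. The motif CAAAGTCCA, with its reverse complement TGGACTTTG, of the tubule factor HNF4 was in 0.384% of all windows. It was in no window of the 8 matched members, which are too few to expect any at that share. This describes letters only, not binding.

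In the knockout kidneys the basolateral transporters Slc22a2, Slc22a6 and Slc22a8 were lower, and no member was higher. The prostaglandin transporter Slc22a22 was also called, but it passed the filter on low counts only through the controls and so had to differ. Without it 3 of 7 tested members were called lower, and with it 4 of 8. All 4 knockouts reached the filter for Slc22a8, 3 did for Slc22a6 and 2 for Slc22a2. That Slc22a6 and Slc22a2 were tested thus rested partly on the controls. Across all 18485 genes tested, 14.9% were called, 8.27% lower and 6.61% higher. The fitted log2 fold change, knockout minus control, was negative for 7 of the 7 and for 49.5% of all genes, with a median of -1.85 (-2.25 with Slc22a22) against 0.0044 over all genes. All 4 knockouts lay below all 4 controls for 3 of the 7, and for 9.58% of all genes. The counts of members that follow include Slc22a22 and, where it could be tested, the scarce Slc22a7. The calls depended on single libraries. Without knockout replicate 4 the edgeR test called 0 of 9 members (0.230% of all genes were then called lower), with 8 at an unadjusted p under 0.05 and a smallest adjusted p of 0.0530. Without control replicate 2 it called 9 of 9, against 19.0% of all genes, and without both control replicate 2 and knockout replicate 3, chosen after the data were seen, 9 of 9 against 22.2%. On all 8 libraries DESeq2 called 7 of 9 members (12.6% of all genes were lower) and limma-voom with sample weights called 8 of 8 (22.9%).

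**Figure D1:**
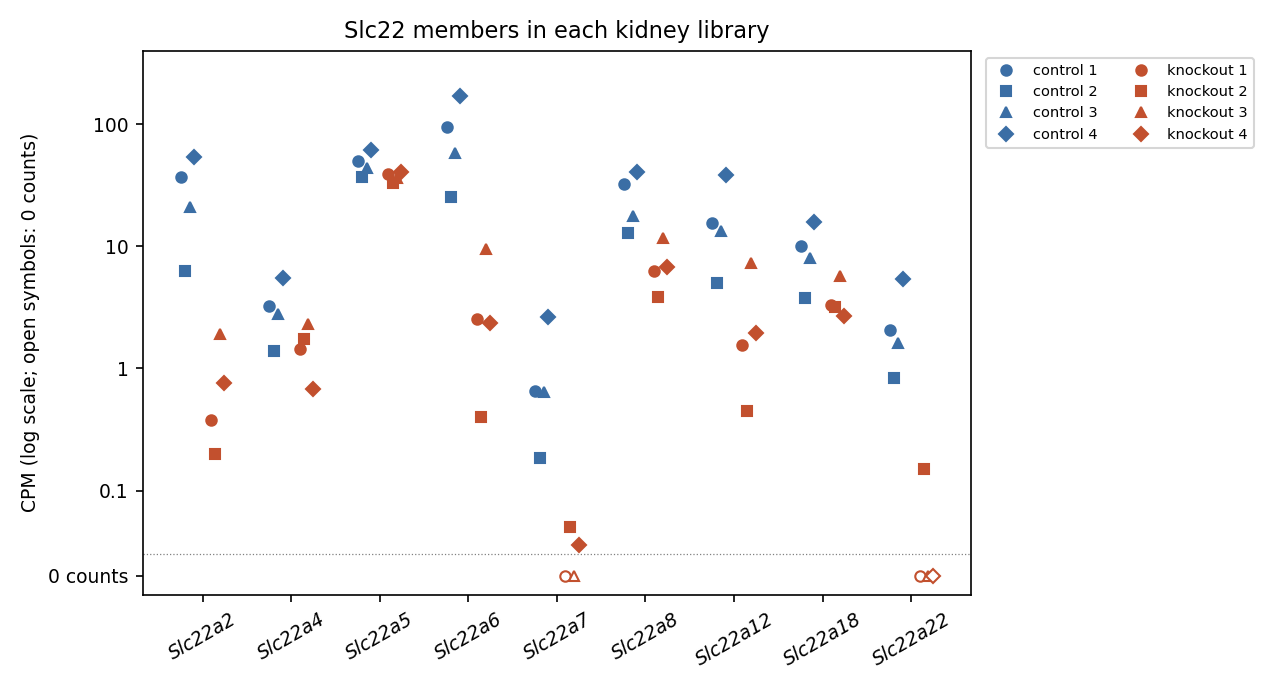
CPM of each Slc22 member in the 8 kidney libraries on a log scale, with controls in blue, knockouts in red, 1 symbol shape per replicate number, and open symbols for libraries with 0 counts. Control replicate 4 is the highest and control replicate 2 the lowest control for 9 of 9 members. The groups lie far apart for Slc22a2 and Slc22a6 and side by side for Slc22a5.

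Slc22a6 encodes OAT1, the uptake exchanger for p-aminohippurate, many drugs and uremic solutes. Its abundance was 95.6, 25.4, 58.4 and 170.3 CPM in control replicates 1 to 4, and 2.53, 0.402, 9.51 and 2.34 CPM in knockout replicates 1 to 4. The highest knockout was well below the lowest control, although the controls themselves were widely spread. The mean fell from 87.4 ± 62.2 to 3.70 ± 4.0 CPM (SD, n = 4 each), a log2 difference of -4.51 (SE 0.82, edgeR adjusted p = 0.0164). Slc22a6 was called in 6 of the 8 fits that left out 1 library, with log2 fold changes from -5.56 to -3.98, and lost its call without knockout replicate 1 (adjusted p = 0.0527) or 4 (adjusted p = 0.0647).

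Slc22a8 encodes OAT3, a neighbouring exchanger with overlapping substrates and a broader range of anionic drugs. It was at 32.4, 12.8, 17.6 and 40.6 CPM in the controls and at 6.25, 3.82, 11.7 and 6.83 CPM in the knockouts. The groups did not overlap, but knockout replicate 3 came close to control replicate 2. Slc22a8 fell by 1.85 on the log2 scale (SE 0.42, edgeR adjusted p = 0.0264), less than Slc22a6, 6.16 kb away on chromosome 19. Of the 8 fits with a library left out, those without control replicate 2 or knockout replicate 3 called it, and its adjusted p in the others ran from 0.0597 to 0.0844.

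Slc22a7, the gene for OAT2, was the scarcest member. It was counted 16, 4, 16 and 58 times in the controls, 0.655, 0.185, 0.646 and 2.64 CPM, and 0, 1, 0 and 1 times in the knockouts. These 2 knockout counts and 94 control counts fell under the filter on low counts, and Slc22a7 was not tested in the fit reported here. The knockout share of the control level was 1.97%, with an exact 95% interval of 0.235% to 7.31% that covers counting error only.

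Slc22a22 encodes a prostaglandin transporter of the rodent kidney. It was at 2.05, 0.835, 1.61 and 5.45 CPM in the controls, 228 counts in all. In the knockouts 3 counts were found, all in replicate 2 (0.151 CPM), and replicates 1, 3 and 4 had 0, where 3 counts would stand for 0.127, 0.104 and 0.108 CPM. Every control lay above every knockout. The knockout share of the control level was 1.22% (exact 95% interval 0.249% to 3.60%, counting error only). No knockout library reached the 0.412 CPM that the filter asked for, so the call of Slc22a22 is not used as support.

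Slc22a2 encodes OCT2, which takes up creatinine, metformin and cisplatin from the blood. It was at 37.1, 6.31, 20.9 and 53.6 CPM in the controls and at 0.380, 0.201, 1.90 and 0.755 CPM in the knockouts. No knockout reached the lowest control, replicate 2. The mean went from 29.5 ± 20.4 to 0.810 ± 0.765 CPM (SD, n = 4 each), or -5.11 on the log2 scale (SE 0.78, edgeR adjusted p = 0.0120). Of the 8 fits with a library left out, 7 called it, and the eighth, without knockout replicate 4, gave an adjusted p of 0.0530. Slc22a3, a neighbour of Slc22a2 on chromosome 17, was at 0.19 on the log2 scale (SE 0.28, edgeR adjusted p = 0.658).

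Slc22a12 encodes URAT1, the apical exchanger through which urate is reabsorbed. Its values were 15.4, 5.05, 13.3 and 38.1 CPM in the controls and 1.56, 0.452, 7.27 and 1.94 CPM in the knockouts. Knockout replicate 3 lay above control replicate 2, and the other 3 knockouts lay below all controls. On the log2 scale the difference was -2.65 (SE 0.80). The edgeR adjusted p was 0.0545, just short of a call, and DESeq2 called it (adjusted p = 0.0202). Of the 50-base words of Slc22a12, 27.4% also occur in Nrxn2, whose exons overlap it on the opposite strand. Nrxn2 had a log2 fold change of 0.00 (edgeR adjusted p = 0.989), and reads of the pair cannot be told apart if counting ignored strand.

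Slc22a5 encodes OCTN2, the sodium-dependent transporter that brings carnitine into cells. It was at 49.6, 36.7, 43.9 and 61.5 CPM in the controls and at 39.0, 33.3, 36.5 and 40.5 CPM in the knockouts. The groups overlapped, with knockout replicates 1 and 4 above control replicate 2. The knockout mean was 77.9% of the control mean, and the log2 difference of -0.36 (SE 0.15, edgeR adjusted p = 0.116) was not called. Of its 50-base words, 26.3% also occur in Slc22a21 or other genes nearby. Slc22a21, a carnitine transporter between Slc22a5 and Slc22a4, was at 0.27 on the log2 scale (SE 0.11, adjusted p = 0.133).

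Slc22a4 encodes OCTN1, a transporter of the antioxidant ergothioneine. It was at 3.24, 1.39, 2.78 and 5.54 CPM in the controls and at 1.44, 1.76, 2.32 and 0.683 CPM in the knockouts. The groups overlapped, since 3 knockouts were above control replicate 2. Its log2 fold change of -1.06 (SE 0.46) had an edgeR adjusted p of 0.134.

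Slc22a18 is an orphan transporter in the imprinted domain of chromosome 7. It was at 10.1, 3.76, 7.99 and 15.9 CPM in the controls and at 3.29, 3.21, 5.71 and 2.70 CPM in the knockouts. Knockout replicate 3 exceeded control replicate 2, and the remaining knockouts lay below all controls. On the log2 scale the difference was -1.33 (SE 0.41). The edgeR adjusted p was 0.0578, and DESeq2 called it (adjusted p = 0.00584). Of 14 tested genes listed for the imprinted domain, none was called lower and 1 was called higher. That gene was Trpm5, a cation channel (log2 fold change 0.89, SE 0.23, edgeR adjusted p = 0.0348), called in 2 of the 8 fits with a library left out. The median over the 14 was -0.06, and it was 0.01 when libraries were scaled by total counts alone.

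The members varied together among the controls. Control replicate 4 was the highest control and control replicate 2 the lowest for 9 of 9 members, and the same 2 libraries had the highest and lowest proximal tubule mean. Among the knockouts, replicate 3 was the highest for 6 members and replicate 2 the lowest for 5. Control replicate 2 was the one control without Y-linked transcripts. In the 5 libraries that had them, chosen after the data were seen, edgeR called 5 of 9 members lower (7.84% of all genes), namely Slc22a2, Slc22a5, Slc22a6, Slc22a7 and Slc22a22, the last pair with 2 and 3 counts over all knockouts. Without the 3 libraries richest in adrenal markers, also chosen after the data were seen, 9 of 9 members had negative log2 fold changes and none was called by edgeR. The smallest adjusted p was then 0.285, 5 members had an unadjusted p under 0.05, and 1 gene of the whole table was called (0.00% lower).

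Levels can be compared between genes only per length, as CPM per kilobase of exon (RPKM). In the controls the order of the means was Slc22a6 (21.7 ± 15.5 RPKM), Slc22a5 (15.6 ± 3.42), Slc22a2 (13.9 ± 9.65), Slc22a12 (7.99 ± 6.30), Slc22a8 (7.44 ± 3.71), Slc22a18 (5.55 ± 2.96), Slc22a4 (1.27 ± 0.676), Slc22a22 (1.02 ± 0.836) and Slc22a7 (0.514 ± 0.544; SD, n = 4 throughout). Only Slc22a18 and Slc22a4 were neighbours whose ranges did not overlap. In the knockouts Slc22a5 stood first at 12.2 ± 1.02 RPKM, with every library above the next gene, Slc22a18 at 2.19 ± 0.792 RPKM. Then followed Slc22a8 (2.05 ± 0.944 RPKM), Slc22a12 (1.25 ± 1.35), Slc22a6 (0.918 ± 0.993), Slc22a4 (0.607 ± 0.267) and Slc22a2 (0.383 ± 0.361), whose ranges overlapped from each to the next. Slc22a22 (0.0154 RPKM) and Slc22a7 (0.0107 RPKM) came last. OAT1 and OCT2 transcripts thus moved from the first and the third place to the fifth and the seventh. As a share of the control mean, the knockout level was 2.75% for Slc22a2, 4.23% for Slc22a6, 15.6% for Slc22a12, 27.6% for Slc22a8, 39.6% for Slc22a18, 47.8% for Slc22a4 and 77.9% for Slc22a5.

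Each member was also compared with the mean of other proximal tubule genes. The mean log2 CPM of 25 tested proximal tubule genes, a list without Slc22 genes, was subtracted from the member's log2 CPM in each library. The list mean differed by -2.84 between knockouts and controls (5.74 in controls, 2.91 in knockouts). Its single genes ranged from -5.86 to -0.15 as fitted log2 fold changes, a span that holds the values of all tested members but Slc22a22, so a difference from the mean is not one from every gene of the list. The genotypes were then compared by exact permutation, two-sided, using all 70 ways to split the 8 libraries evenly, with p-values adjusted over the 8 tested members. The smallest p that this exact test can give is 0.0286. Of the 8 tested members, 6 passed, each with all 4 knockouts on 1 side of all controls. Each had an exact permutation p of 0.0286, the smallest possible, and an adjusted p of 0.0381. The list mean alone set the genotypes apart, at 4.67 or more in the controls and 3.88 or less in the knockouts. A gene that changed little would thus pass by ending above the list mean, so passing on that side is no further support. Slc22a2 and Slc22a6 dropped further than the list mean, by -2.22 and -2.08 on the log2 scale. Slc22a8, Slc22a18, Slc22a4 and Slc22a5 ended above it, by 1.02, 1.63, 1.85 and 2.5. For Slc22a12 the difference was -0.06 (exact permutation p = 0.857), and for Slc22a22 it was -1.43 (exact permutation p = 0.143, adjusted 0.163). The size for Slc22a22 depends on the prior count of 2 in log2 CPM, since knockout replicates 1, 3 and 4 had 0 counts. With a prior count of 0.5 it was -2.96. The test called none of them when any 1 control library was left out and 6 or 7 when a knockout was left out, where 35 assignments remain, and the 6 kept their direction each time.

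**Figure D2:**
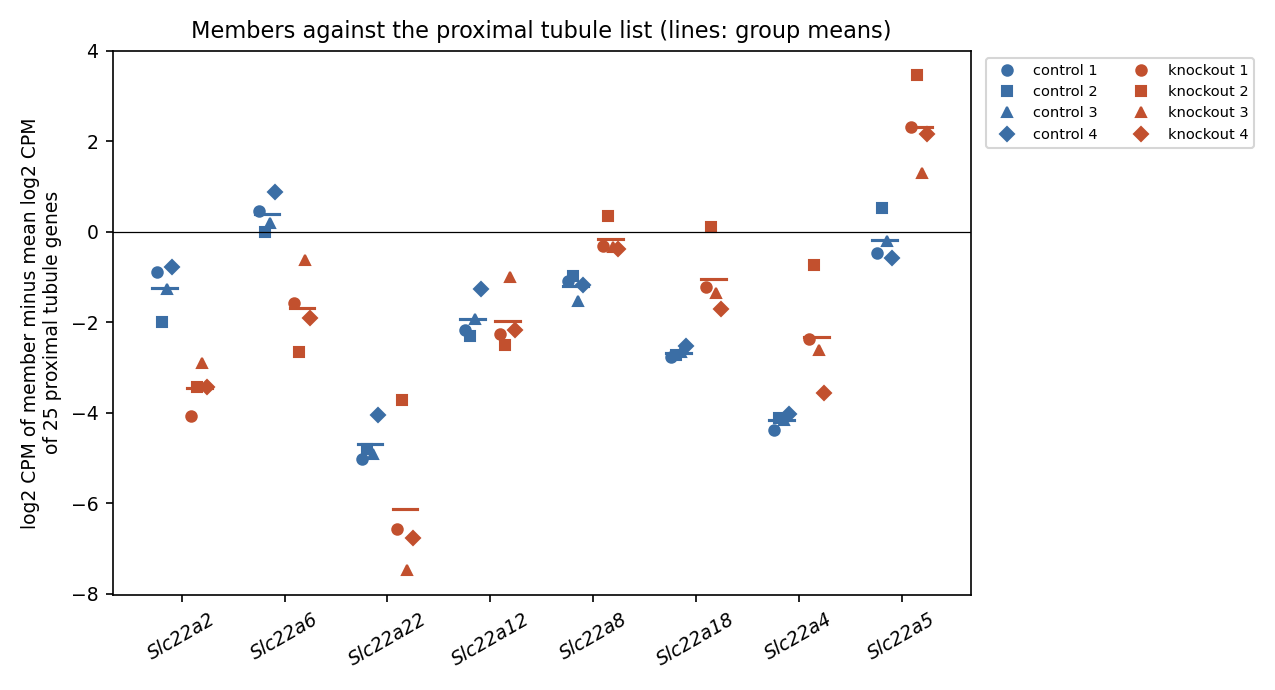
Difference in log2 CPM between each tested member and the mean of 25 proximal tubule genes, per library, with controls in blue, knockouts in red and lines at the group means. All knockouts of Slc22a2 and Slc22a6 lie below their controls, all knockouts of Slc22a8, Slc22a18, Slc22a4 and Slc22a5 lie above, and the groups overlap for Slc22a12 and Slc22a22.

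The neighbours of OAT1 and OAT3 in the wider family were lower too. The family list holds 24 Slc22 genes, and of the 20 tested, 10 were called lower, none higher, and 16 had a negative log2 fold change. In Slc22a22 and Slc22a28 no knockout library reached the filter, and without this pair 8 of 18 were called lower, against 8.27% of all genes. Among these 8, all 4 controls reached the filter, and all 4 knockouts did so only for Slc22a8. It was reached by 3 knockouts for Slc22a6, Slc22a19 and Slc22a29, 2 for Slc22a2 and Slc22a27, and 1 for Slc22a13 and Slc22a30. The count of 8 thus rested partly on the controls. On chromosome 19, 6 genes from Slc22a19 to Slc22a30 lie within 732 kb (positions 7673061 to 8405111, GRCm38), next to Slc22a8 and Slc22a6. All 5 that were tested there were called lower (8.27% of all genes were), with log2 fold changes from -4.90 to -2.71. Slc22a28 is 1 of these 5. None of the 5 reached the filter in all 4 knockouts, so that they were tested rested partly on the controls. Slc22a29 and Slc22a30, transporters of a rodent-specific branch, fell by 4.01 (SE 0.45, edgeR adjusted p = 0.00527) and by 3.21 (SE 0.39, adjusted p = 0.00626), and both were called in 8 of 8 fits with a library left out. Slc22a19, a steroid sulfate transporter, fell by 4.90 (SE 0.90, adjusted p = 0.0168). Slc22a27 and Slc22a28 fell by 2.71 and 3.12 (SE 0.55 and 0.61, adjusted p = 0.02 and 0.0189). These copies resemble each other, since 28.7% to 53.9% of the 50-base words of Slc22a27, Slc22a28, Slc22a29 and Slc22a30 occur in another gene, so reads may be shared among them. Slc22a13, the gene for OAT10, fell by 4.24 (SE 0.91, adjusted p = 0.0230), and 36.0% of its words occur in a pseudogene. Of the other genes called here, Slc22a19 was called in 6 of the 8 fits with a library left out, Slc22a27 and Slc22a28 in 4 and Slc22a13 in 2. In the chromosome 11 trio of Slc22a5, Slc22a21 and Slc22a4, none of the 3 was called. Among 4 related synaptic vesicle genes, Sv2c was higher (log2 fold change 1.88, SE 0.49, adjusted p = 0.0371), in 2 of the 8 such fits.

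**Figure D3:**
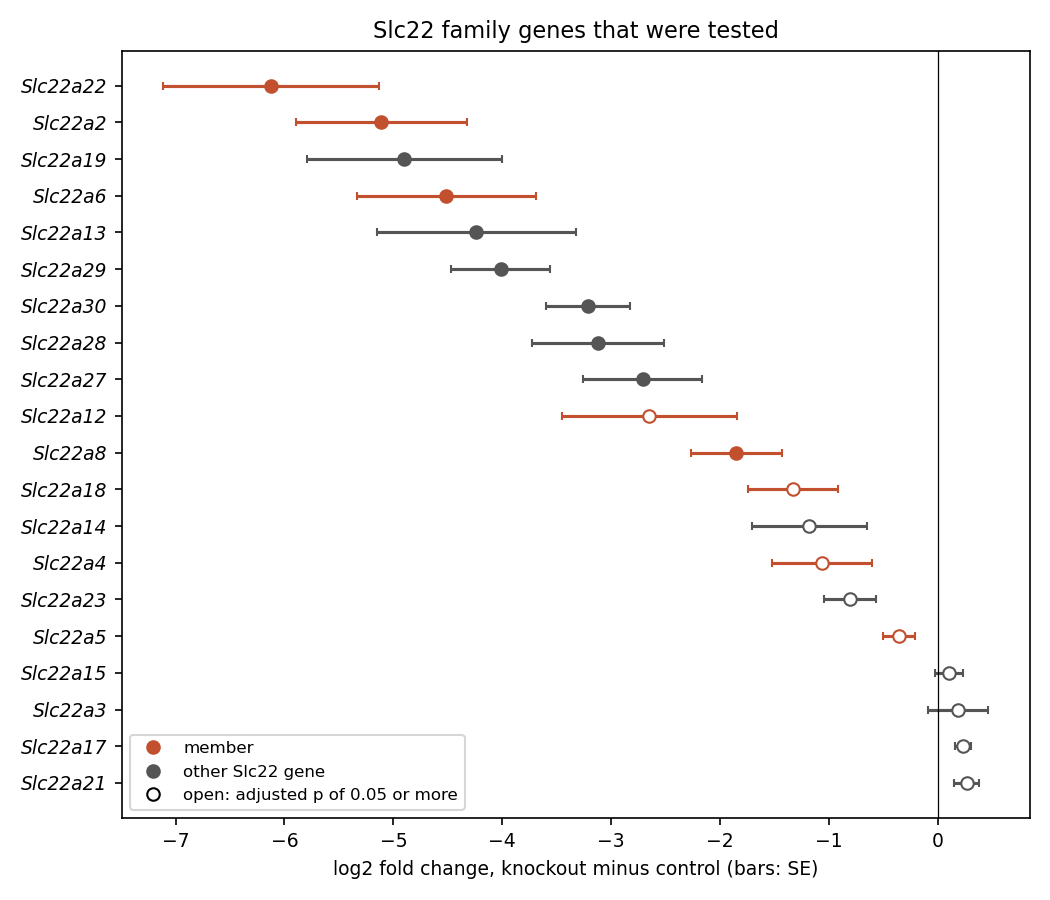
Log2 fold change, knockout minus control, with its SE for the 20 tested Slc22 genes, members in red and other genes in grey, filled where the edgeR adjusted p was under 0.05. The 10 filled points lie left of 0 and none to the right, and the fitted value of Slc22a22 rests on 3 knockout counts.

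Transport by the basolateral members runs on gradients made by other proteins, and all of the 7 genes listed for these were called lower, with a median log2 fold change of -1.73. Slc13a3, which loads the cell with the dicarboxylates that OAT1 and OAT3 exchange, fell by 2.87 (SE 0.72, edgeR adjusted p = 0.0330). The potassium channel genes Kcnj15 and Kcnj16 fell by 2.64 and 1.48 (SE 0.49 and 0.34, adjusted p = 0.0175 and 0.0275), and Slc4a4, for the bicarbonate exit transporter, fell by 0.69 (SE 0.16, adjusted p = 0.0270). With 1 library left out, between 0 and 7 of the 7 were called.

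Substrates taken up by the members leave the cell through apical carriers, of which 5 of 9 tested were called lower and none higher (median -0.68). The drug pump genes Abcb1a and Abcb1b lay the other way, at 1.58 and 2.41 on the log2 scale (SE 0.53 and 0.74, edgeR adjusted p = 0.0717 and 0.0566). DESeq2 called both higher, as did edgeR without control replicate 2 or without knockout replicate 3. Abcb1b was at 35.6, 5.92, 2.77 and 7.70 CPM in knockout replicates 1 to 4, and Abcb1a at 9.42, 4.92, 2.56 and 7.12 CPM. The controls reached 3.89 and 4.22 CPM, above knockout replicate 3. Knockout replicates 1 and 4 were rich in adrenal markers. Without the 3 libraries richest in these, neither gene was called (edgeR adjusted p = 0.542 and 0.657). The part that adrenal RNA plays was not tested. Slc47a1, for the MATE1 exporter that follows OCT2, fell by 2.88 (SE 0.58, edgeR adjusted p = 0.0198). Abcc2, an export pump for conjugates, fell by 3.10 (SE 0.46, adjusted p = 0.0109), and the anion and urate carriers Slc17a1 and Slc17a3 fell by 3.59 and 3.97 (SE 0.56 and 0.65, adjusted p = 0.0121 and 0.0132). Among the partners of URAT1 in urate handling and apical exchange, 7 of 9 tested were called lower and 1 higher (median -2.55). Slc5a8, which supplies monocarboxylates for exchange, fell by 4.81 (SE 0.85, adjusted p = 0.0153), the scaffold gene Slc9a3r1 by 0.80 (SE 0.14, adjusted p = 0.0154), and the dicarboxylate carrier gene Slc13a2 by 2.55 (SE 0.46, adjusted p = 0.0164). The gene called higher was Xdh, whose enzyme makes urate (log2 fold change 1.5, SE 0.29, edgeR adjusted p = 0.0189), named after its value was seen. Xdh was called in 3 of the 8 fits with a library left out. Slc2a9, for the basolateral urate exit GLUT9, was at -0.48 on the log2 scale (SE 0.25, adjusted p = 0.195). With 1 library left out, the lower calls ran from 0 to 6 and the higher calls from 0 to 2 for the efflux genes, and the lower calls from 0 to 8 for the urate partners.

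Of 11 tested genes that make or use carnitine, the substrate of OCTN2, 4 were called lower and 1 higher, with a median of -0.57. Hadhb, of the mitochondrial fatty acid oxidation complex, fell by 0.61 (SE 0.14, edgeR adjusted p = 0.0264), and Aldh9a1, of carnitine synthesis, by 0.49 (SE 0.12, adjusted p = 0.0290). Bbox1, for the last enzyme of carnitine synthesis, rose from 0.539 ± 0.144 to 1.18 ± 0.292 CPM (SD, n = 4 each). Its log2 fold change was 1.13 (edgeR adjusted p = 0.0388), on 50 control and 120 knockout counts. Bbox1 was called in 1 of the 8 fits with a library left out. Of 9 tested transcription factors of the proximal tubule, 3 were called lower (median -0.81). Hnf4a fell by 2.26 (SE 0.57, adjusted p = 0.0336), Nr1h4, for the bile acid receptor FXR, by 2.18 (SE 0.59, adjusted p = 0.0408), and Ppara, a regulator of fatty acid oxidation, by 1.49 (SE 0.43, adjusted p = 0.0473). With 1 library left out, 0 to 9 carnitine genes and 0 to 3 factors were called lower. With the mean log2 CPM of Y-linked genes as a covariate, 0 of the 9 factors were called lower (median -0.99). So were 2 of the 11 carnitine genes and 4 of the 7 genes listed for basolateral gradients. Of the 8 tested members 4 were called, as without the covariate, and Slc22a22, which is not used as support, was 1 of them. Over all 18485 genes tested, 2068 were called in either direction with the covariate and 2751 without it.

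**Figure D4:**
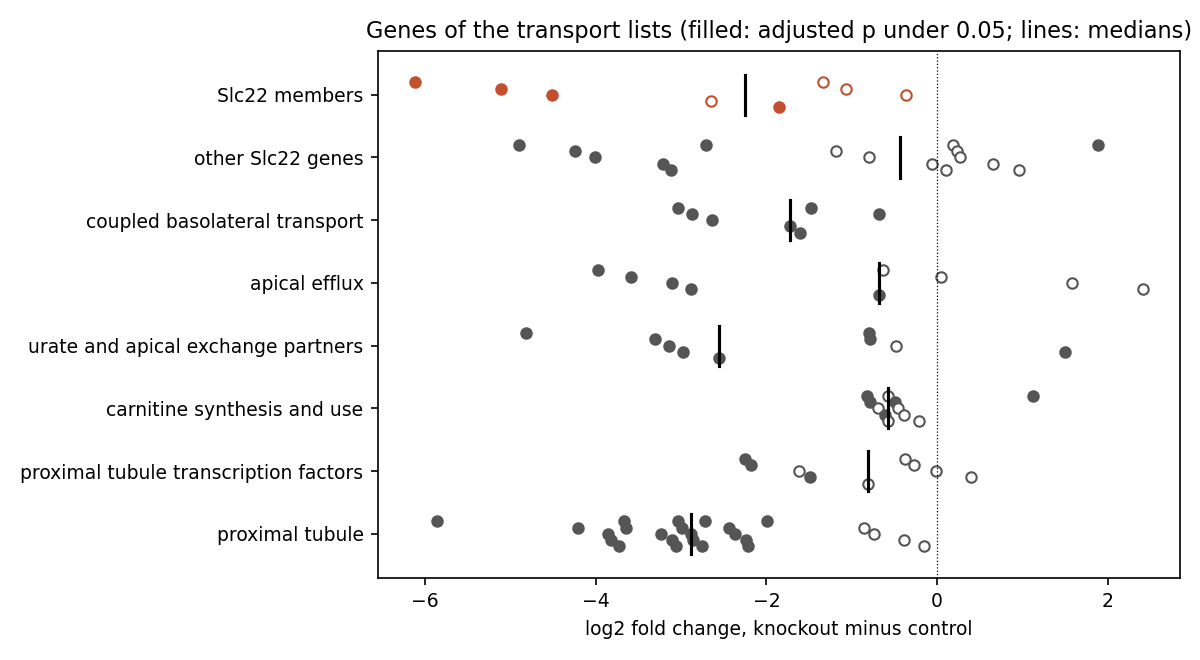
Log2 fold change, knockout minus control, of each tested gene in the Slc22 members (red) and in the lists of related genes (grey), filled where the edgeR adjusted p was under 0.05, with a line at each list's median. The member median of -2.25, Slc22a22 included, lies between those of the basolateral partners (-1.73) and of the 25 proximal tubule genes (-2.88).

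For each tested member, the genes with the nearest pattern were found among 14177 others, by the root mean square difference of log2 CPM over the 8 libraries after each gene was centred on its mean. The nearest to Slc22a2 was Cyp2j5 (0.17), then Acsm1 and Cyp4a31. Slc22a6 was nearest to Acsm1 (0.27), Slco1a6 and Slc27a2, and Slc22a8 to Kynu (0.15), Xpnpep2 and Sigirr. Slc22a12 was nearest to Ggt1 (0.30), a gene of the proximal tubule list, then Hsd17b2 and Mfsd4b1. Slc22a22 had no gene closer than Sucnr1 (0.64), followed by Acox2 and Acmsd. Slc22a18 was nearest to Cfb (0.17), Aqp7 and Pcca, and Slc22a4 to Aqp7 (0.18), Galnt2 and Eddm3b. Slc22a5, the steadiest member, was nearest to Cyb561a3 (0.06), Nus1 and Rpusd2.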

How the data were processed

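Messenger RNA of 4 control and 4 Kdm1a conditional knockout kidneys was measured. The deposited values are the authors' raw counts of reads for each Ensembl gene, as whole numbers. Per the submitters' processing notes, the tools were Trimmomatic 0.36, STAR 2.5.2b, featureCounts of Subread 1.5.2 and DESeq2, and the build was GRCm38. Strand handling and the treatment of reads matching several genes are not given in the sources used here.

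Libraries were grouped by the genotype label. The whole count table was scaled by TMM, filtered with filterByExpr (18485 of 49315 genes kept) and tested with edgeR 4.0.16 (quasi-likelihood, two-sided) in R 4.3.3, with Benjamini-Hochberg adjustment over all genes tested. CPM used TMM library sizes, and RPKM divided CPM by the deposited gene length. Log2 CPM had a prior count of 2. The alternatives were other scalings, DESeq2 1.42.0, voom of limma 3.58.1, other filters, a replicate block, a Y-linked covariate and each library left out. Sets of left-out libraries were added after the data were seen. Promoters came from RefSeq (GRCm38.p6).

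The members and the gene lists were chosen with earlier results of these data known. The text names Kdm1a, the members, called Slc22 relatives, Slc13a3, Slc47a1, Slc2a9 and Hnf4a, up to 3 called genes per transport, carnitine, factor and imprinting list by adjusted p, the 3 nearest patterns per member, and Slc22 neighbours. Some items picked by this rule are not reported here. Of 230 listed genes, Tmlhe was not matched and is not analysed here. Shared words are 50-base stretches of a gene's transcripts found in another gene.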

Additional observations from a re-analysis of the deposited data

Results flagged for a closer look

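Within the knockouts, Slc22a22 was at 0.151 CPM in replicate 2 (3 counts) and at 0 in the other 3 libraries, so that 1 library stood apart from the rest of its group. With the others at 0, any count in the fourth library would stand apart in this way, and the difference rests on 3 counts. It was the one such case among 18 groups of 4 checked (9 members in 2 genotypes), where chance alone sets apart about 1 in 20 groups. Knockout replicate 2 had the lowest proximal tubule mean of the 8 libraries, and its adrenal markers summed to 15.0 CPM.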

How the results depend on the processing

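All tested members had negative log2 fold changes under each of the 20 alternative fits, and no result changed direction past its threshold. The number of calls was less steady. Against 2751 calls over all genes, 4 members and 10 family genes called lower with edgeR, DESeq2 called 4468 genes and 7 members, and limma-voom with sample weights called 8302 genes, 8 members and 16 family genes. With 1 library left out, calls ran from 153 (without knockout replicate 4) to 7084 (without control replicate 2), members from 0 to 9 and family genes from 2 to 17. Among sets chosen after the data were seen, leaving out control replicate 2 and knockout replicate 3, which lay nearest the other group, gave 7903 genes, 9 members and 17 family genes. Leaving out the 3 libraries with the most adrenal markers gave 1 gene, 0 members and 0 family genes.

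Of the 6 members that differed from the proximal tubule list, the count was 0 to 7 with 1 library left out, and 0 for each added set of 5 or 6 libraries, where no permutation p under 0.1 can be reached. Over these alternatives Slc22a2 stayed between -2.66 and -1.77 and Slc22a6 between -2.56 and -1.76, Slc22a8 between 0.85 and 1.28, and Slc22a5 between 2.12 and 3.07.

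The replicate numbers showed no clear pairing of the libraries. The correlations of deviations within a number were -0.11, 0.33, 0.23 and -0.06, and 3 of 8 libraries correlated best with their own number. Sex-linked and adrenal transcripts also differed between libraries, so whether the numbers mark pairs cannot be told from these values. With the number as a block, 6 members (Slc22a5 and Slc22a12 added) and 3229 genes were called. Scaling moved the median over all genes by at most 0.07 (log2). Depth limits Slc22a7 and Slc22a22, with 2 and 3 knockout counts.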
